A study of Mus musculus with 45 samples.

Results

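The genes described here are 10 colony-stimulating factor and chemokine genes of the mouse, *Csf1*, *Csf2*, *Csf3*, *Cxcl1*, *Cxcl2*, *Cxcl3*, *Cxcl5*, *Cxcl12*, *Ccl2* and *Ccl7*. They were chosen by name, as genes whose products recruit or expand neutrophils and monocytes, and are 10 of the 54838 genes in the count table. Reads were found on all 10, and all 10 passed the low-count filter of the comparisons across genes. RNA was sequenced from 15 cell lines of *PyMT*+ mammary tumour cells, in which the polyomavirus middle T antigen comes from the MMTV-*PyMT* transgene, active in the mammary epithelium of FVB/N mice. The groups were YEJG and YEJH, 2 parental lines from mammary tumours, 6 lines re-grown from fat-pad tumours (YEJG-FP and YEJH-FP1 to YEJH-FP5) and 7 lines re-grown from lungs with micrometastases (YEJG-M1, YEJG-M2 and YEJH-M1 to YEJH-M5). Of the lung lines, YEJH-M3 is labelled as lung metastases and the other 6 as whole lung. The labels name no treatment and no age of the mice, and RNA was taken from cultures a day after plating. Each line was sequenced as 3 technical repeats, so that the line is the replicate. P-values from counts summed per line measure the spread between lines. YEJG and YEJH are each a single line, so origin and parental culture cannot be told apart.

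Colony-stimulating factors are secreted proteins that drive the production, survival and mobilisation of myeloid cells. *Csf1* encodes M-CSF, which maintains monocytes and macrophages, *Csf2* encodes GM-CSF, which acts on granulocytes and macrophages, and *Csf3* encodes G-CSF, which mobilises neutrophils from the bone marrow. *Cxcl1*, *Cxcl2*, *Cxcl3* and *Cxcl5* encode chemokines that attract neutrophils through the receptor CXCR2. *Cxcl12* encodes the ligand of CXCR4, which retains leukocytes in the marrow, and *Ccl2* and *Ccl7* encode ligands of CCR2 that draw monocytes out of it. Tumour cells of the mammary gland can release these factors, and transcription of several of them is known to respond to NF-kB downstream of IL-1, TNF and IL-17.

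The promoters of *Cxcl1*, *Cxcl2* and *Cxcl3* are shown because these neighbouring genes hold the same NF-kB-type run of bases. That of *Csf1* is shown beside them as the gene with the other match among the 6 of 10 genes that had an entry in RefSeq (GRCm38.p6, from 250 bases before to 50 bases after the transcription start, written 5′ to 3′ along the gene). Capitals mark matches to the NF-kB consensus, searched on both strands and named here without its letters because some of its positions are degenerate.
*Cxcl1* promoter, chr5:90890995-90891294, forward strand: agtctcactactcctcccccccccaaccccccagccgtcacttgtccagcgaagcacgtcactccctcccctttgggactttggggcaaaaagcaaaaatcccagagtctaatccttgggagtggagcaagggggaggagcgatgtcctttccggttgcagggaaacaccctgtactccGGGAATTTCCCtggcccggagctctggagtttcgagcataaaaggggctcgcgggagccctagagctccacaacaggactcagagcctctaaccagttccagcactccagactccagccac
*Cxcl2* promoter, chr5:90903649-90903948, forward strand: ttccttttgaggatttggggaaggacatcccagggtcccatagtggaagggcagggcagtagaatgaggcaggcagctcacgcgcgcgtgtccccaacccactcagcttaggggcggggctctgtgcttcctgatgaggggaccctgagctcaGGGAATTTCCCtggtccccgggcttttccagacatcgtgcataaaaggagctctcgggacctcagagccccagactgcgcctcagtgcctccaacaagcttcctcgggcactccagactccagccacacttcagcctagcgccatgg
*Cxcl3* promoter, chr5:90785851-90786150, forward strand: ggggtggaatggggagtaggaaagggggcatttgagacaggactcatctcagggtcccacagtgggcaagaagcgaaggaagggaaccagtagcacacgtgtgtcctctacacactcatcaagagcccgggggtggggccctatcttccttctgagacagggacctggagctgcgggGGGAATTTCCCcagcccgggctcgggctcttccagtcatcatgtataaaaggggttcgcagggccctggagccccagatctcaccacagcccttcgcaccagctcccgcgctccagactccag
*Csf1* promoter, chr3:107760420-107760719, reverse strand: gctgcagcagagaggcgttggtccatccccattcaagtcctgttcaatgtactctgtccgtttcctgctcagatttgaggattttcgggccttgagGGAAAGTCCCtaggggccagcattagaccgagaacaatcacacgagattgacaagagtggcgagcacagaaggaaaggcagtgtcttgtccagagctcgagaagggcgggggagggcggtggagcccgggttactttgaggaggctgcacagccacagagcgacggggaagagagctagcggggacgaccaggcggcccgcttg
In *Cxcl1*, *Cxcl2* and *Cxcl3* the capitals form the run GGGAATTTCCC, which matches the consensus on both strands at overlapping positions. It lies 71 to 61 bases before the start of *Cxcl1*, 97 to 87 before that of *Cxcl2* and 73 to 63 before that of *Cxcl3*. The match in *Csf1*, GGAAAGTCCC, lies 154 to 145 bases before the start and reads in the other direction. Of 32851 promoters of the same length, 4.51% held the consensus and 0.0883% held GGGAATTTCC. The windows of *Csf2* and *Cxcl12* held no match to these letters, and none of the 6 windows held the AP-1 type motif TGANTCA, which 7.81% of all promoters held. These matches are a description of the letters and not of binding.

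On GRCm39, *Cxcl5* (90907186 to 90909483), *Cxcl3* (90933962 to 90937459), *Cxcl1* (91039094 to 91040974) and *Cxcl2* (91051730 to 91053797) lie on the forward strand of chromosome 5. *Ccl2* (81926397 to 81928279) and *Ccl7* (81936532 to 81938351) are neighbours on the forward strand of chromosome 11, which also holds *Csf2* (54138097 to 54140493, reverse strand) and *Csf3* (98592089 to 98594458, forward strand). *Csf1* lies on the reverse strand of chromosome 3 (107648364 to 107667806) and *Cxcl12* on the forward strand of chromosome 6 (117144945 to 117158328). Reads of 75 bases could be shared between *Cxcl2* and *Cxcl3* at 101 positions, 4.57% and 2.78% of their read positions, so that both counts carry this uncertainty. For *Csf3*, 29.7% of such positions are shared with an antisense transcript, and for *Cxcl5* 18% are shared with other genes, an antisense transcript among them. The library kit does not mark the strand, so reads of a gene and its antisense partner cannot be told apart.

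Between 9723860 and 16943900 reads per library fell on genes, and the 10 genes took from 407 reads in all (*Ccl7*) to 135024 (*Csf1*). Levels are given as CPM, counts per 1e+06 reads on genes after TMM scaling, averaged over the 3 libraries of a line. Keratin *Krt8*, 1 of 11 listed markers of mammary tumour epithelium, was at a mean of 2577 CPM over the 15 lines. In the 2 YEJG lung lines its mean was 1545 CPM. The 11 markers together came to between 3886 and 11532 CPM per line, with 3886 and 3902 CPM in the YEJG lung lines. The 8 fibroblast markers together came to between 1.98 and 88.4 CPM per line, with 77.3 and 88.4 CPM in the YEJG lung lines. The leukocyte markers *Itgam*, *Cd3e* and *Tyrobp* and the lung markers *Sftpc*, *Sftpb* and *Sftpa1* had 0 reads. The 12 leukocyte markers, *Csf1r* among them, together came to between 2.16 and 6.85 CPM per line. The 6 lung epithelium markers together came to between 1.74 and 53.7 CPM per line, led by *Foxj1* at a mean of 23.5 CPM. The library of YEJG-M1 replicate 1 bears the name of YEJH-M1 but is titled YEJG-M1, and the title was followed. Library names begin with 1 of 2 prefixes, here called run A and run B, each with libraries of every line, and what the prefix stands for is not stated in the labels. Between the runs, 0 of the 10 genes passed the quasi-likelihood test of edgeR with line as covariate (all adjusted p at least 0.228), against 15.9% of 14339 genes tested.

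Per kilobase of the canonical transcript, the neutrophil chemokines *Cxcl1* and *Cxcl5* had the highest levels, with medians over the 15 lines of 78.9 and 75.5 CPM per kb. *Csf1* followed with 39.7 and *Csf3* with 30.4 CPM per kb. The medians of the other 6 genes were at or under 3.56 CPM per kb, from *Cxcl2* at 3.56 through *Ccl2* at 1.92, *Cxcl3* at 0.899 and *Csf2* at 0.882 to *Cxcl12* at 0.336 and *Ccl7* at 0.213. The lowest line for *Csf3*, at 4.60 CPM per kb, lay above the highest for *Csf2*, at 3.72. The SD between lines on the log2(CPM + 0.5) scale ran from 0.43 for *Cxcl1* to 1.75 for *Ccl2*, against a median of 0.19 over 16361 genes, and lay above that between repeats, 0.11 to 0.30, for each of the 10 genes. Most of the order of the lines could not be resolved for any of the 10 genes, since of the 14 pairs of neighbouring lines in that order 9 (*Ccl2*) to 14 (*Cxcl2*) had overlapping repeats.

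**Figure D1:**
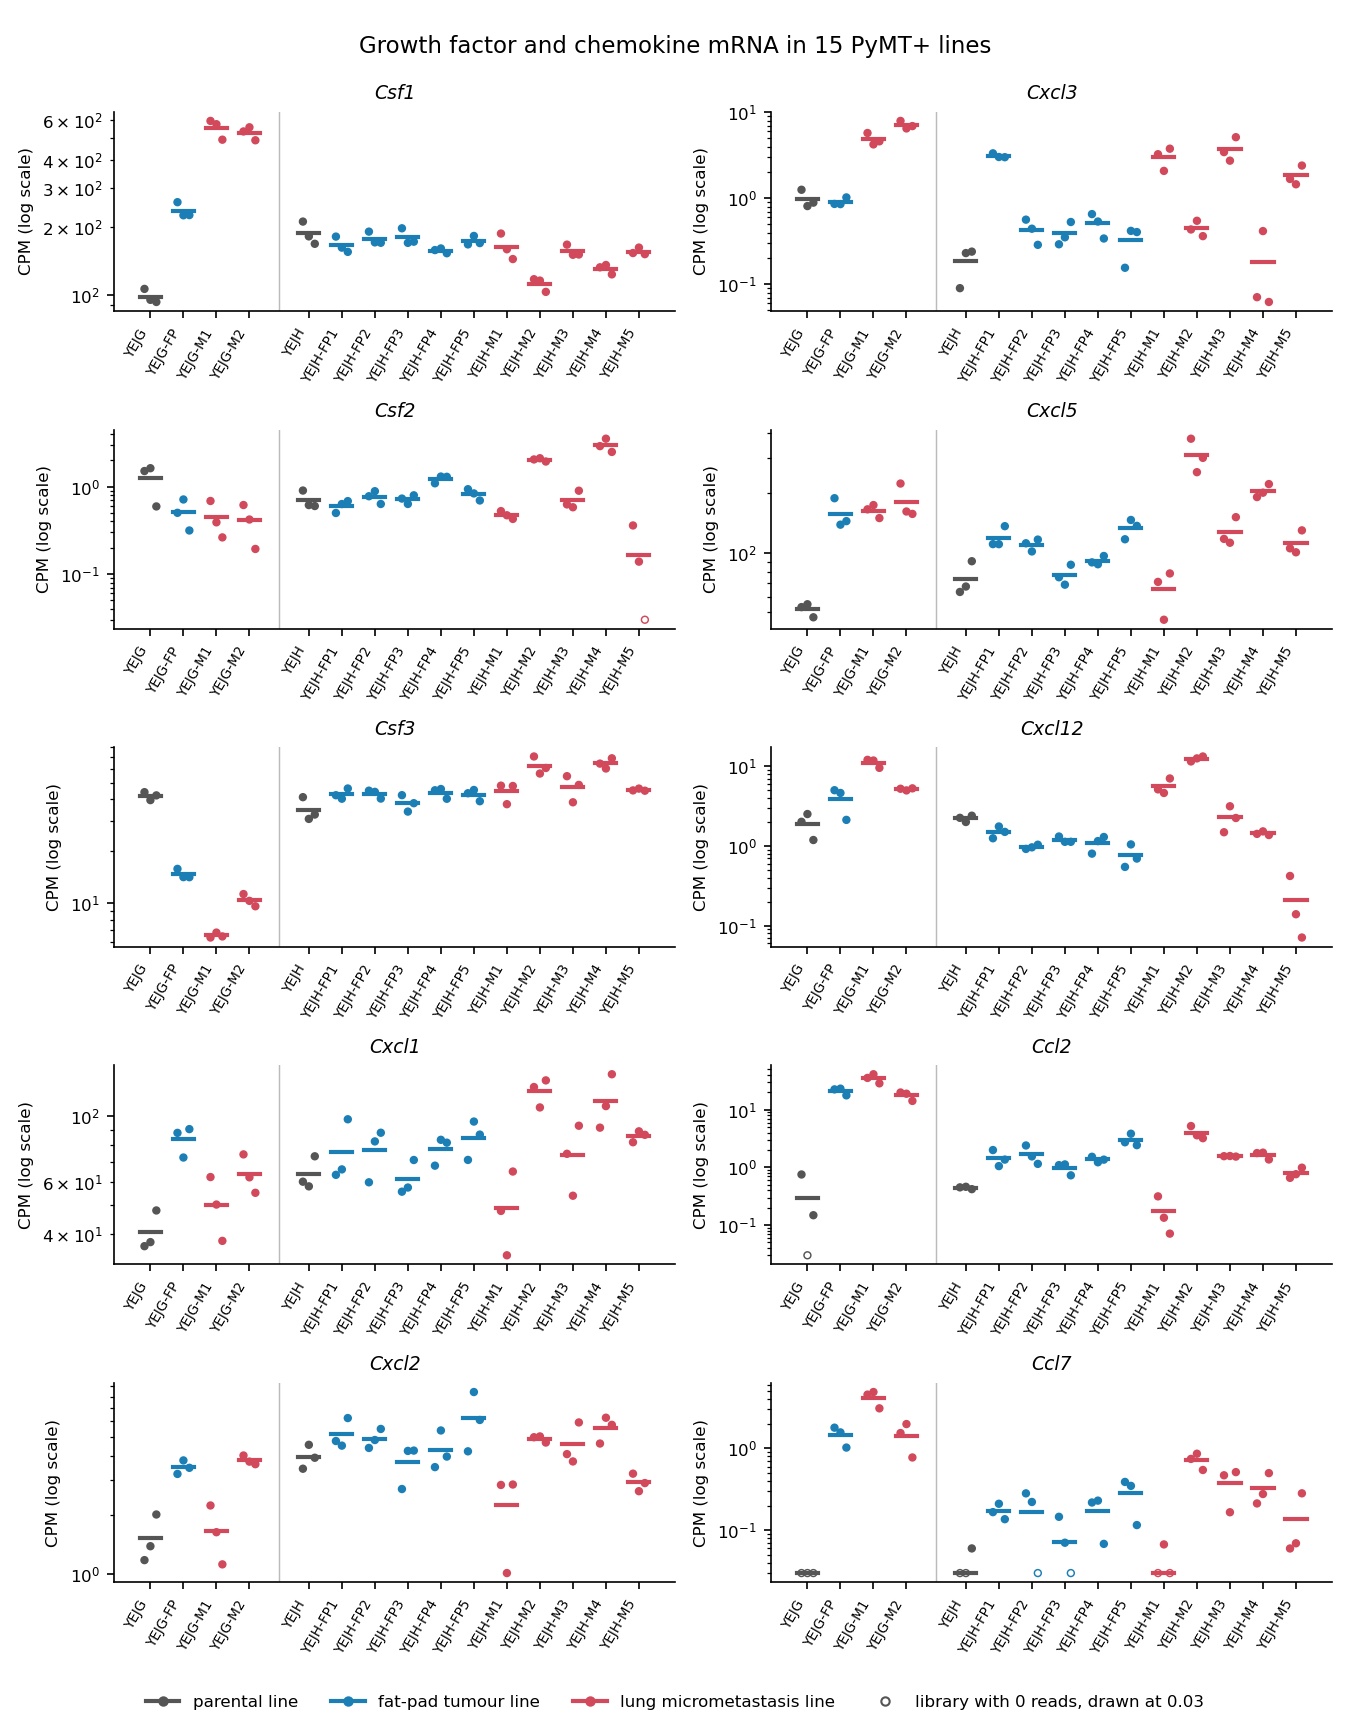
Level of each gene in the 45 libraries, in CPM on a log axis, by cell line; points are libraries, bars are the mean of the 3 libraries of a line, and the grey line divides YEJG from YEJH lines. The 3 YEJG-derived lines stand above all YEJH-derived lines in *Csf1*, *Ccl2* and *Ccl7* and below them in *Csf3*; line means under 0.03 are drawn at 0.03.

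Lines derived from YEJG and lines derived from YEJH were compared with site as a covariate, which asks whether the parental tumour line is reflected in the factors its descendants express. *Csf1*, *Ccl2* and *Ccl7* were higher and *Csf3* was lower in YEJG-derived lines, and for each of these genes the line means did not overlap. They are 4 of the 10 genes, *Ccl7* with a limit given below. This share is near the background, since 42.3% of 15056 genes passed in the same test, 20.9% higher and 21.4% lower, and the line means of 24.8% did not overlap (11.6% higher and 13.2% lower). The median log2 fold change of the 10 genes was 0.72 (range -2.18 to 3.87), beside 0.0133 over all genes tested, and a shift of the set was not tested. RNA came from whole cultures, so fewer cells that express a gene and less of its RNA per cell cannot be told apart.

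For *Csf1* the YEJG-derived lines had 237 CPM in YEJG-FP, 553 in YEJG-M1 and 526 in YEJG-M2, a mean of 439 ± 175 (SD, n = 3 lines). The 10 YEJH-derived lines ran from 112 CPM in YEJH-M2 through a median of 161 to 180.2 in YEJH-FP3. All 3 YEJG-derived lines lay above the highest YEJH-derived line, although their own parent YEJG had the lowest *Csf1* of all 15 lines, at 98.1 CPM against 188 in YEJH. The log2 fold change between the origins was 1.48 (standard error, SE, 0.20, adjusted p = 0.000134 by the Benjamini-Hochberg method in the quasi-likelihood test of edgeR).

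*Csf3* showed the opposite order. It had 14.7 CPM in YEJG-FP, 6.51 in YEJG-M1 and 10.4 in YEJG-M2, a mean of 10.6 ± 4.11 (SD, n = 3 lines). YEJH-derived lines ran from 38.1 CPM in YEJH-FP3 through a median of 44.2 to 64.7 in YEJH-M4. Every YEJG-derived line lay below every YEJH-derived one, while the parental lines, with 42.0 CPM in YEJG and 34.9 in YEJH, lay side by side. The log2 fold change was -2.18 (SE 0.24, adjusted p = 3.09e-05, same test).

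The monocyte chemokine *Ccl2* had 21.1 CPM in YEJG-FP, 35.1 in YEJG-M1 and 17.7 in YEJG-M2, a mean of 24.6 ± 9.23 (SD, n = 3 lines). YEJH-derived lines ran from 0.173 CPM in YEJH-M1 through a median of 1.52 to 4.01 in YEJH-M2. The lowest YEJG-derived line was thus above the highest YEJH-derived line, with a log2 fold change of 3.87 (SE 0.48, adjusted p = 7.07e-05, same test). *Ccl7* had 1.46 CPM in YEJG-FP, 4.17 in YEJG-M1 and 1.43 in YEJG-M2, against 0.0224 to 0.717 in YEJH-derived lines (log2 fold change 3.10, SE 0.47, adjusted p = 0.000237, same test). It reached the low-count filter through the YEJG-derived lines, where it was higher. Its call between the origins is thus a description and no support for a difference. With run A or run B alone the log2 fold change of *Csf1* was 1.46 and 1.51, that of *Csf3* -2.17 and -2.18 and that of *Ccl2* 3.89 and 3.86, and each passed, while *Ccl7* fell under the low-count filter in both.

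The CXCR2 ligands did not pass between the origins, with log2 fold changes of -0.35 (SE 0.24) for *Cxcl1*, -0.55 (0.30) for *Cxcl2*, 1.2 (0.80) for *Cxcl3* and 0.24 (0.34) for *Cxcl5*. Nor did *Csf2*, at -1.27 (SE 0.66), or *Cxcl12*, at 1.25 (0.68). Adjusted p for these 6 genes ran from 0.144 to 0.601 by the quasi-likelihood test of edgeR. When libraries were kept apart in limma-voom, *Cxcl3* (log2 fold change 2.0, adjusted p = 0.000207) and *Cxcl12* (1.82, adjusted p = 0.000504) passed as well. That fit takes technical repeats as units, with a correlation within lines shared by all genes. Its p-values can therefore be too small for genes that differ mainly between lines. *Cxcl12* also passed without YEJH-M2 (1.80, adjusted p = 0.0201) and *Csf2* without YEJH-M5 (-1.43, adjusted p = 0.0495).

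**Figure D2:**
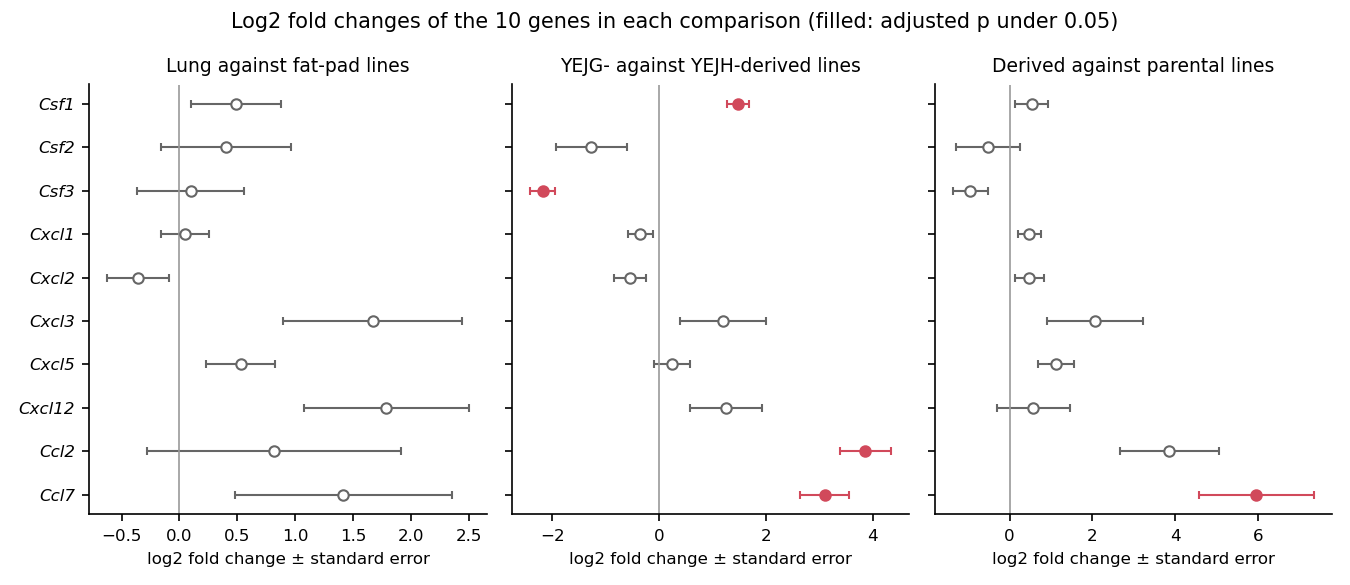
Log2 fold change with its SE for each gene in 3 comparisons; filled points passed the quasi-likelihood test of edgeR at an adjusted p of 0.05. None is filled for lung against fat-pad lines, 4 are filled between the origins and *Ccl7* alone is filled against the parental lines, where its value rests on a parental level near 0.

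Genes of the same pathways were read from the same fit. Of 33 listed genes of NF-kB, IL-1, TNF and IL-17 signalling, 31 were tested and 11 rose and 6 fell in YEJG-derived lines, with a median log2 fold change of 0.11, where 20.9% of all genes tested rose and 21.4% fell. *Il1a*, which encodes the cytokine IL-1 alpha, fell by 3.68 on the log2 scale (SE 0.47, adjusted p = 7.7e-05), from 93.5 ± 56.9 CPM (SD, n = 10 lines) in YEJH-derived lines to 7.43 ± 1.97 (SD, n = 3 lines). *Il1r1*, which encodes its signalling receptor, rose by 2.53 (SE 0.20, adjusted p = 3.35e-06), from 2.16 ± 0.386 to 13.1 ± 4.67 CPM. Among the YEJG-derived lines *Il1a* was at 7.89 CPM in YEJG-FP, 5.27 in YEJG-M1 and 9.12 in YEJG-M2, whereas the parental YEJG had 50.4 CPM. Of 22 listed target and feedback genes of NF-kB, 19 were tested and 6 rose and 4 fell, against the same background. *Vcam1*, an adhesion molecule for leukocytes, rose by 2.45 (SE 0.35, adjusted p = 0.000175), and *Lif*, a cytokine of the IL-6 family, fell by 1.26 (SE 0.20, adjusted p = 0.000345).

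Of 30 other chemokines and related ligands, 15 were tested and 3 rose and 4 fell in YEJG-derived lines, beside the 42.3% of all genes tested that passed. *Ccl9* and *Cx3cl1*, which encode ligands of CCR1 and CX3CR1, rose by 2.30 (SE 0.50, adjusted p = 0.00261) and 1.42 (SE 0.26, adjusted p = 0.00087). *Cxcl16*, a ligand of CXCR6, fell by 1.12 (SE 0.27, adjusted p = 0.00526). Of the 15 listed receptors of these factors, 13 did not reach the low-count filter, and *Csf1r*, the receptor of M-CSF, had 2.45 ± 1.2 CPM (SD, n = 10 lines) in YEJH-derived and 1.34 ± 1.21 (SD, n = 3 lines) in YEJG-derived lines (log2 fold change -1.19, SE 0.35, adjusted p = 0.0152).

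Markers of cell type moved with the origin as well. Of 11 markers of mammary tumour epithelium, 10 were tested and 9 were lower in YEJG-derived lines, among them *Cdh1* (E-cadherin, log2 fold change -1.53, SE 0.28, adjusted p = 0.000827) and *Krt19* (-2.45, SE 0.38, adjusted p = 0.000285). Their summed level was 3886 to 7050 CPM in YEJG-derived and 8602 to 11532 CPM in YEJH-derived lines. Of 8 fibroblast markers, 3 were tested and all 3 were higher, and the summed level of the list was 11.9 to 88.4 CPM against 2.63 to 6.24 CPM. *Lum* and *Thy1* were at 0 reads in all lines, and *Pdgfrb* led the list in YEJG-derived lines at a mean of 33.1 CPM. Of the 12 leukocyte markers, 2 were tested and *Csf1r*, named above, was lower, and the summed list was at 2.16 to 4.67 CPM in YEJG-derived and 2.82 to 6.85 CPM in YEJH-derived lines. Of 6 lung epithelium markers, 1 was tested, *Foxj1*, and it was lower in YEJG-derived lines (-1.68, SE 0.52, adjusted p = 0.0204, same test). None of the 5 endothelium markers reached the filter, and their summed level was at most 0.816 CPM in any line. The part of these shifts in the values of the 10 genes was not tested.

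**Figure D3:**
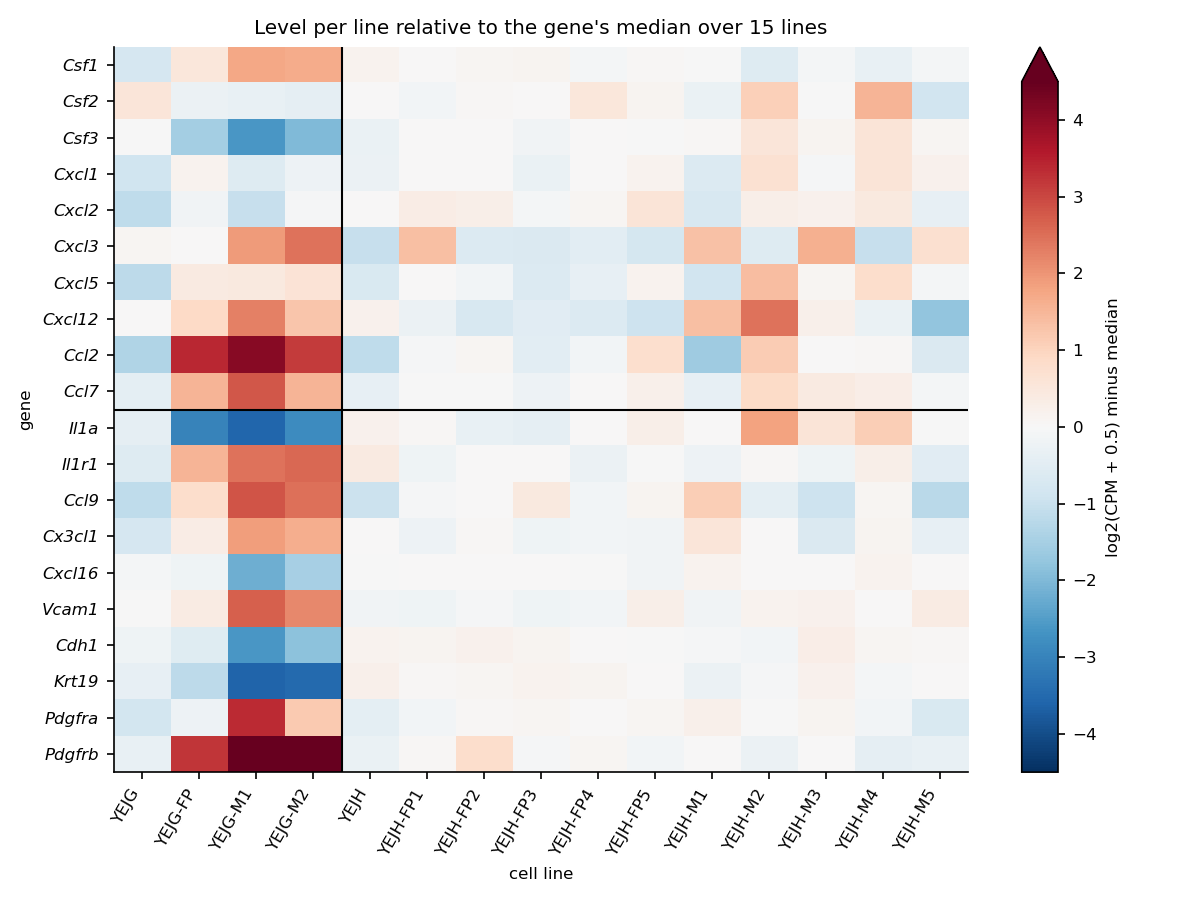
Level of the 10 genes (above the line) and of 10 companion genes named by the rule in the methods (below), as log2(CPM + 0.5) minus the median of the gene over the 15 lines. YEJG-FP, YEJG-M1 and YEJG-M2 are raised in *Csf1*, *Ccl2*, *Ccl7*, *Il1r1* and *Pdgfrb* and lowered in *Csf3*, *Il1a* and *Krt19*, and their parent YEJG is raised in none of the former; *Pdgfrb* in 2 of them exceeds the colour scale.

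Within YEJH lines, *Csf1* and *Csf3* ran in opposite order, without the YEJG lines that stand apart. Over these 11 lines, log2 levels had a Pearson r of -0.94 and a Spearman rho of -0.95, and r was -0.87 over 9 lines without YEJH-M2 and YEJH-M4. These 2 lines had the lowest *Csf1*, 112 and 131 CPM, and the highest *Csf3*, 62.8 and 64.7 CPM. At the other end, the parental YEJH had the highest *Csf1* of the 11, at 188 CPM, and the lowest *Csf3*, at 34.9 CPM. The lines share a parent and both genes were read from the same libraries, so these coefficients are a description and carry no p.

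**Figure D4:**
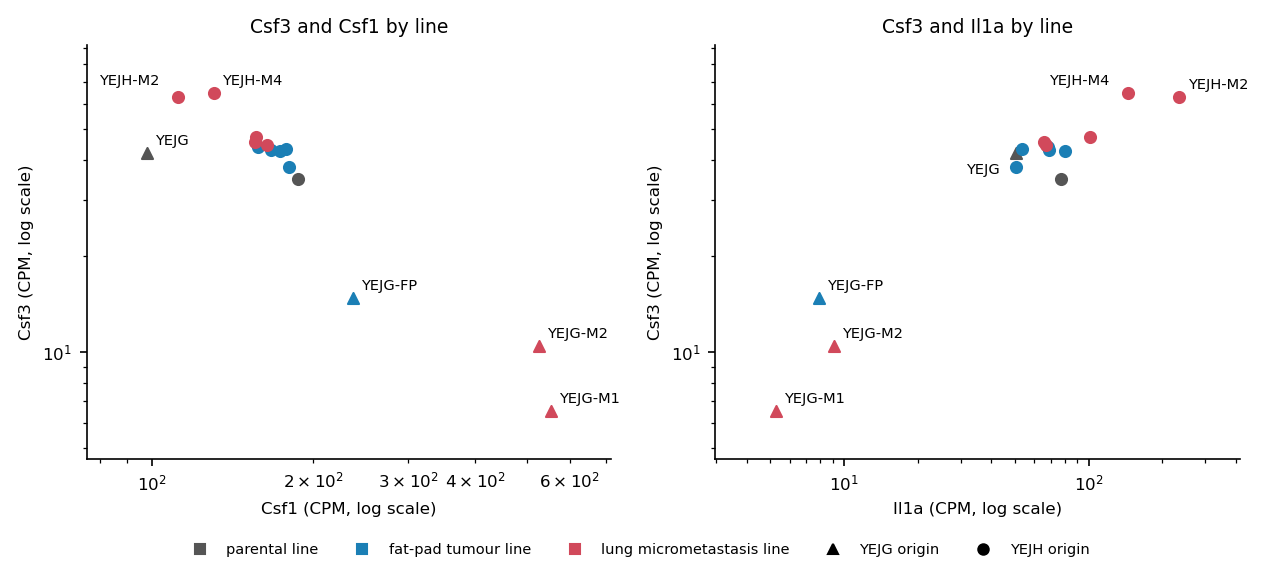
Level of *Csf3* against *Csf1* (left) and against *Il1a* (right), in CPM on log axes, 1 point a line, coloured by site and shaped by origin. *Csf3* falls as *Csf1* rises from YEJH-M2 to YEJG-M1, with the parental YEJG off this order, and the 3 YEJG-derived lines are low in both *Csf3* and *Il1a*.

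Lung lines were compared with fat-pad lines to ask whether cells that had settled in the lung express these factors at another level. None of the 10 genes passed the quasi-likelihood test of edgeR, nor did any of the 15056 genes tested (0% called, with 784 at an unadjusted p under 0.05, 21 genes called by DESeq2's Wald test and 96 by limma-voom with libraries kept apart, none of them among the 10). Adjusted p was at least 0.909 for the 10 genes, and 2 had an unadjusted p under 0.05. The median of their log2 fold changes was 0.51 (range -0.35 to 1.79), beside 0.00932 over all genes tested, and a shift of the set was not tested. Line means of lung and fat-pad lines overlapped for all 10, beside 0.252% of all genes tested without overlap.

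The genes with the largest differences were *Cxcl12*, at a log2 fold change of 1.79 (SE 0.71, unadjusted p = 0.0257 and adjusted p = 0.909), and *Cxcl3*, at 1.67 (SE 0.77, unadjusted p = 0.049 and adjusted p = 0.909, edgeR). *Cxcl12* ran in fat-pad lines from 0.762 CPM in YEJH-FP5 through a median of 1.14 to 3.93 in YEJG-FP. In lung lines it ran from 0.21 CPM in YEJH-M5 through a median of 5.17 to 12.5 in YEJH-M2. Of the 7 lung lines, 4 lay above all fat-pad lines and 1, YEJH-M5, lay below them all. *Cxcl3* ran from 0.326 CPM in YEJH-FP5 through a median of 0.471 to 3.12 in YEJH-FP1 in fat-pad lines, and from 0.183 in YEJH-M4 through a median of 3.04 to 7.11 in YEJG-M2 in lung lines. Here 3 lung lines lay above all fat-pad lines and 1 lay below.

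The other 8 genes had log2 fold changes between -0.35 (*Cxcl2*, SE 0.27) and 1.42 (*Ccl7*, SE 0.94). Those of *Csf3* and *Cxcl1*, 0.10 (SE 0.46) and 0.05 (0.21), were below their SEs. *Csf1* and *Ccl2* were at 0.49 (SE 0.39) and 0.82 (SE 1.10), but at -0.26 and -0.04 among YEJH-derived lines alone. In the lists of pathway genes and cell type markers, 0 genes passed between lung and fat-pad lines.

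The difference between lung and fat-pad lines was then compared between the origins, as the interaction of site and origin. It passed for *Csf1*, at 1.45 (SE 0.20, adjusted p = 0.000809 in the quasi-likelihood test of edgeR), and for *Csf3*, at -1.12 (SE 0.30, adjusted p = 0.0269). These are 2 of 10 genes, 1 in each direction, beside 15.5% of 15056 genes tested (7.61% higher and 7.86% lower). YEJG gave 2 lung lines but a single fat-pad line, which is assumed to vary like the other groups. *Csf1* was at 237 CPM in YEJG-FP against 553 and 526 in YEJG-M1 and YEJG-M2, whereas among YEJH-derived lines it was at 171 ± 9.22 CPM (SD, n = 5 lines) in fat-pad and 144 ± 21.7 (SD, n = 5 lines) in lung lines. *Csf3* was lower in the YEJG lung lines than in YEJG-FP, and higher in the YEJH lung lines than in the YEJH fat-pad lines. The *Csf3* interaction did not pass without YEJG-M1 (-0.83, adjusted p = 0.106) or in run A alone (-0.93, adjusted p = 0.0839).

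Among YEJH-derived lines, *Csf3* was the gene of the 10 whose levels did not overlap between the sites, beside 1.97% of 15056 genes. It was at 43.0, 43.2, 38.1, 43.8 and 42.6 CPM in YEJH-FP1 to YEJH-FP5 and at 44.5, 62.8, 47.2, 64.7 and 45.4 CPM in YEJH-M1 to YEJH-M5. The gap between the highest fat-pad and the lowest lung line was small, and YEJH-M2 and YEJH-M4 stood well above the rest. *Csf1* ran the other way, with 166, 178, 180.2, 157 and 174 CPM in YEJH-FP1 to YEJH-FP5 and 164, 112, 156, 131 and 156 CPM in YEJH-M1 to YEJH-M5, where 4 of 5 lung lines lay below all fat-pad lines.

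By line means, YEJH-M2 and YEJH-M4 were the highest 2 of all 15 lines not only in *Csf3* but also in *Csf2*, *Cxcl1* and *Cxcl5*. *Csf2* was at 2.03 and 2.98 CPM in these lines against 0.166 to 1.24 in the other 13. *Cxcl1* was at 122 and 113 CPM against 40.5 to 85.6, and *Cxcl5* at 310.2 and 204 CPM against 51.8 to 180.5. Single repeats of YEJH-M4 overlapped those of other lines in both genes. Its lowest *Cxcl1* repeat was at 91.4 CPM, against up to 97.6 in YEJH-FP1. Its lowest *Cxcl5* repeat was at 191 CPM, against up to 223 in YEJG-M2. *Il1a* was also highest in these 2 lines, at 235 and 146 CPM, against at most 101 in the other lines. They differed from each other in *Cxcl12*, at 12.5 CPM in YEJH-M2 and 1.44 in YEJH-M4, and in *Ccl2*, at 4.01 and 1.65 CPM.

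YEJH-M1 had the lowest *Cxcl1* and *Cxcl5* of the YEJH lines, at 48.8 and 65.3 CPM, and the lowest *Ccl2* of all lines, at 0.173 CPM on 6 reads, but *Cxcl12* at 5.61 CPM. By line means, YEJH-M5 had the lowest *Csf2* and *Cxcl12* of all lines, at 0.166 and 0.21 CPM, on only 8 and 10 reads. Its *Csf2* repeats reached 0.36 CPM and overlapped those of YEJG-M2, which began at 0.194 CPM. For 10 of 10 genes the SD of log2 levels was larger among the 5 YEJH lung lines than among the 5 YEJH fat-pad lines. The same held for 77.7% of 16361 genes, whose median SD was 0.142 in lung and 0.0846 in fat-pad lines, so a wider spread among lung lines was common to most genes.

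Pairs of related genes followed each other to unequal degrees over the 11 YEJH lines. *Cxcl1* and *Cxcl5* had a Pearson r of 0.94 and a Spearman rho of 0.81, with r = 0.91 over 9 lines without YEJH-M1 and YEJH-M2. *Ccl2* and *Ccl7* had r = 0.87 and rho = 0.83, with r = 0.76 without the same 2 lines. *Cxcl1* and *Cxcl2*, which carry the same GGGAATTTCCC run, had r = 0.64 and rho = 0.53, with r = 0.40 without YEJH-M1 and YEJH-M2. *Cxcl3*, which carries it too, had r = -0.37 with *Cxcl1* and -0.43 with *Cxcl2*, and these values came to -0.09 and 0.03 when 2 lines were left out. Its counts were low in some lines, at 8 reads in YEJH and 8 in YEJH-M4, against 157 in YEJH-M3. A link of these values to the shared run was not tested. *Csf2* and *Csf3* had r = 0.71 but rho = 0.23, and r = -0.21 without YEJH-M2 and YEJH-M4, so that their likeness rested on these 2 lines. A high r was not particular to related genes. Over the same 11 lines it was 0.94 for *Cxcl5* and *Ccl7*, 0.86 for *Csf3* and *Cxcl5* and 0.84 for *Cxcl1* and *Ccl7*. *Ccl7* thus followed *Cxcl5* more closely than its neighbour *Ccl2*. Other pairs were far lower, such as *Cxcl1* and *Cxcl12* at 0.07. As above, the lines share a parent. These 7 pairs, the *Csf1* and *Csf3* pair included, and the others just named are given as a description.

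Derived lines were compared with the parental lines YEJG and YEJH, with origin as a covariate, which asks whether growth in a mouse and renewed culture went with other levels. *Ccl7* had a log2 fold change of 5.97 (SE 1.39, adjusted p = 0.0214 in the quasi-likelihood test of edgeR), and 7.74% of 16361 genes tested passed (3.51% higher). It reached the low-count filter through the derived lines, where it was higher, so this call is a description and no support for a difference. YEJG had 0 reads of *Ccl7* in its 3 libraries and YEJH had 1, and YEJH-M1 had 1 read too, so that 12 of 13 derived lines had more reads than either parent. After scaling the line means did not overlap, as for 8.33% of 15056 genes, but for YEJH-M1 this rests on 1 read against 1. The fitted value of a gene at or near 0 reads is no bound on its change. As a ratio of reads, the 10 YEJH-derived lines had 106 reads and YEJH 1, a ratio of 10.2 per read on genes (exact 95% interval 1.78 to 405). The 3 YEJG-derived lines had 300 reads and YEJG 0, for which the lower limit of the same exact interval was a ratio of 24.9, and the ratio against the 3 reads over the libraries of YEJG that a count of 0 allows was 30.7. These intervals and limits cover counting error only. The call was lost among YEJH and its derived lines alone (3.10, adjusted p = 0.392), without YEJG (3.10, adjusted p = 0.534) and in run B alone (4.72, adjusted p = 0.0629).

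*Ccl2* was at 0.301 CPM in YEJG and 0.444 in YEJH, below 12 of the 13 derived lines, the exception being YEJH-M1. Its log2 fold change of 3.87 (SE 1.19) had an adjusted p of 0.0636 and did not pass. DESeq2's Wald test (3.04, adjusted p = 0.0148), run A alone (4.67, adjusted p = 0.021), limma-voom with libraries kept apart (5.83, adjusted p = 1.72e-06) and the same with the repeat number as a block (5.67, adjusted p = 4.28e-06) called it, as did the fits without YEJH (6.36, adjusted p = 0.0132), without YEJH-M1 (3.97, adjusted p = 0.029) and without replicate 3 (4.21, adjusted p = 0.0365). The limma-voom fits, here and for the genes below, take technical repeats as units. For *Ccl2* the SD of log2 levels was 1.75 between lines and 0.30 between repeats, so these p-values can be too small. By reads, the YEJG-derived lines were 87.8 times above YEJG (exact 95% interval 49.0 to 176) and the YEJH-derived lines 3.86 times above YEJH (2.43 to 6.56), both for counting error only. These ratios rest on 11 reads in YEJG and 18 in YEJH. The YEJG reads were uneven over its libraries, at 9, 0 and 2, and the interval does not cover such a spread between repeats. *Cxcl5* was at 51.8 CPM in YEJG and 73.9 in YEJH, and 12 of 13 derived lines lay above both, with a log2 fold change of 1.13 (SE 0.44, adjusted p = 0.136). With libraries kept apart in limma-voom, *Cxcl5* (1.13, adjusted p = 0.00175) and *Csf1* (0.82, adjusted p = 0.00862) passed, and with the repeat number as a block they did so too (adjusted p = 0.00234 and 0.00912). Without YEJH, *Csf1* (2.15, adjusted p = 0.00555) and *Csf3* (-2.01, adjusted p = 0.00203) passed.

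For the other 7 genes the adjusted p lay between 0.187 and 0.768. For *Csf1* and *Csf3* the ratio to the parent lay on opposite sides of 1 in the origins. YEJG-derived lines had 4.47 times the *Csf1* level of YEJG and 0.252 times its *Csf3* level, against 0.839 and 1.36 times for YEJH-derived lines over YEJH. The median log2 fold change of the 10 genes was 0.56 (range -0.95 to 5.97), beside 0.00425 over all genes tested, and a shift of the set was not tested. Among the NF-kB target and feedback genes, *Lcn2*, an iron-binding protein of the acute phase, rose by 2.37 (SE 0.46, adjusted p = 0.00913) and *Tnfaip2* by 1.80 (SE 0.27, adjusted p = 0.00225), 2 of 20 tested. Of 31 tested genes of NF-kB, IL-1, TNF and IL-17 signalling, *Ltbr*, a receptor of the TNF receptor family, fell by 0.21 (SE 0.05, adjusted p = 0.0298). Among the markers, *Krt14* and *Epcam* fell, by 1.79 and 0.98 (adjusted p = 0.00819 and 0.0398, same test), and *Col3a1* and *Pdgfrb*, at or near 0 in the parental lines, were at a mean of 2.82 and 33.1 CPM in the 3 YEJG-derived lines but at 0.0468 and 0.199 CPM in the 10 YEJH-derived lines. Receptors, other chemokines and the leukocyte, endothelium and lung epithelium markers had 0 calls in this comparison, with 3 chemokines and none of the other 4 lists at an unadjusted p under 0.05.

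Over the 15 lines, the genes whose log2 levels were most like those of each member, out of 16111 compared, are given as a description of likeness, since all were read from the same libraries. For *Csf3*, *Klhl2* was among the nearest genes (r = 0.98). *Csf1* was most like *Zcchc24* and *Prdm11* (0.96 for both). *Ccl2* and *Ccl7* were each other's nearest gene (0.96), followed by *Nmnat3* and *Ptbp2* (0.96 for both). The chemokine *Cxcl1* was most like *Myo10*, an unconventional myosin, and *Zc3h12a*, which encodes an RNase that degrades cytokine mRNAs (0.88 for both), and *Cxcl5* was most like *Il13ra2* (0.85) and *Elovl4* (0.84). *Cxcl12* was most like *Rasl11b* (0.92) and *Usp5* (0.89), *Cxcl3* like *Ggt7* (0.88) and *Txnrd2* (0.86), and *Csf2* like *Col8a1* (0.86) and *Aldh1a3* (0.84). *Cxcl2* was most like *Gm37660* (0.89) and *3110062G12Rik* (0.88).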

How the data were processed

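PolyA RNA of 15 lines was sequenced in 45 libraries, 3 technical repeats a line. The table the authors deposited holds raw read counts, not normalised. Their processing notes name FastQC, HISAT2, SAMtools 1.2, HTSeq and build GRCh38, a human assembly, although the gene identifiers are mouse ones. Of 54838 identifiers, 50764 (92.6%) matched a symbol of the GRCm39 annotation. Classes outside genes took 31.6 to 43.3% of reads and were left out, and 0 columns were unused.

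Counts were summed over the 3 libraries of a line (38265130 to 45958820 reads on genes) and tested by quasi-likelihood F tests in edgeR 4.0.16 (R 4.3.3) with TMM scaling, filterByExpr and Benjamini-Hochberg adjustment at 0.05 over all genes tested. Standard errors are the log2 fold change divided by the square root of F. Alternatives used DESeq2 1.42.0 and limma 3.58.1. In limma-voom the libraries were units, with a correlation within lines shared by all genes. Python 3.11.15, scipy 1.17.1 and matplotlib 3.10.9 served for intervals and figures. Log2 levels are log2(CPM + 0.5).

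The members and lists were chosen with earlier results of these data known. Named companions are, per list and comparison, drawn from up to 4 called genes of largest fold change, and for each member the 2 genes of highest r, of which 1 is not reported here. *Krt8* and the markers at 0 reads were named outside this rule. On simulated counts, 2-fold changes were called in 68.7% of 67 genes between sites (15056 genes), 70.2% between origins (15056 genes) and 62.7% against parental lines (16361 genes). The SD of log2 levels between lines was 0.43 to 1.75 for the 10 genes, against a median of 0.19 over 16361 genes. Their SEs between sites ran from 0.21 (*Cxcl1*) to 1.10 (*Ccl2*). The share of 2-fold changes called at the spread of the 10 genes was not tested.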

Additional observations from a re-analysis of the deposited data

Results flagged for a closer look

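In groups of 6 to 10 lines, a line was picked out where its gap to the nearest other line took an unusually large part of the range of the group. This held in 9 of 30 groups examined, where independent groups of normally distributed values would give about 1.5. The groups share lines, so this count is a description. In fat-pad lines, YEJG-FP stood apart in 5 genes: the gap was 0.7137 of the range for *Csf1* (237 against 180.2 CPM in the nearest line), 0.804 for *Csf3* (14.7 against 38.1 CPM), 0.7659 for *Cxcl12* (3.93 against 1.5 CPM), 0.9001 for *Ccl2* (21.1 against 3.0 CPM) and 0.8471 for *Ccl7* (1.46 against 0.285 CPM). YEJG-FP is the only fat-pad line of its origin, so these 5 are not independent of the comparison of the origins above. YEJH-FP1 stood apart in *Cxcl3* (gap 0.7898 of the range, 3.12 against 0.913 CPM). YEJG-M1 stood apart among lung lines in *Ccl7* (0.6599, 4.17 against 1.43 CPM). YEJH-M2 stood apart among YEJH-derived lines in *Cxcl12* (0.5601, 12.5 against 5.61 CPM) and *Ccl7* (0.4807, 0.717 against 0.383 CPM).

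The difference between lung and fat-pad lines itself differed between the origins for *Csf1* (1.452 on the log2 scale, standard error 0.20, adjusted p = 0.000809 in the quasi-likelihood test of edgeR) and for *Csf3* (-1.121, standard error 0.30, adjusted p = 0.0269), with 1 YEJG fat-pad line behind both.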

How the results depend on the processing

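The 4 calls between the origins kept their direction and side of the threshold under the alternatives that tested them. *Ccl7* was not tested in run A, run B or without replicate 3, and 3 to 6 of the 10 genes were called. Between lung and fat-pad lines 0 of the 10 genes passed under each alternative, and the genes called came to 21 with DESeq2, 96 with limma-voom, 1 in run A, 3 with origin as covariate, 7 in YEJH-derived lines and 0 to 1 with a line left out (1 without YEJG-M1). Directions turned with limma-voom for *Csf2* (-0.22), *Csf3* (-0.20) and *Cxcl1* (-0.026), and in YEJH-derived lines alone for *Csf1* (-0.26) and *Ccl2* (-0.042). With 1 line left out, *Csf3* ran from -0.070 to 0.28 (lowest without YEJG-FP; -0.042 without YEJH-M2, -0.060 without YEJH-M4), *Ccl2* from -0.20 (without YEJG-M1) to 2.36, *Csf2* from -0.14 (without YEJH-M4) to 0.59 and *Cxcl1* from -0.079 to 0.14 (lowest without YEJH-M2; -0.058 without YEJH-M4, -0.0072 without YEJH-FP3), or -0.020 without replicate 1. Against the parental lines, calls numbered 2070 with DESeq2, 2792 with limma-voom, 726 in run B and 615 in YEJH lines, and ran from 162 (without YEJG) to 2266 (without YEJH), or from 631 to 1817 with a repeat left out. Of the 10 genes, 2 were called with DESeq2, 4 with limma-voom, 2 in run A, 0 in run B, 0 in YEJH lines, 0 to 4 with a line and 1 to 2 with a repeat left out. *Csf1*, *Csf2*, *Csf3* and *Cxcl12* turned in YEJH lines (-0.25, 0.58, 0.45 and -0.018) and without YEJG (-0.24, 0.58, 0.46 and -0.00028), with the far ends without YEJH (2.15, -1.52, -2.01 and 1.48). In the interaction, whose alternatives were chosen after seeing the data, 1 gene of the 10 was called in run A and 1 to 2 with a line left out. *Cxcl2* turned in run B (0.026) and over lines left out ran from -0.82 to 0.40, *Ccl2* from -0.23 (without YEJG-M1) to 1.02 and *Ccl7* from -0.96 to 0.57. The cause of these changes was not tested. With the repeat number as a replicate block, calls came to 82 between sites and 2856 against parental lines, 4 of the 10 genes among the latter, and *Csf2*, *Csf3* and *Cxcl1* turned between sites (-0.14, -0.19 and -0.027). YEJH fat-pad and lung lines with the same number were no more alike than others (mean r of deviations -0.042, against 0.011 for other numbers). Whether they came from the same mouse is not stated in the labels, and these values cannot decide it. With the line number as a block *Csf1* and *Ccl2* were at -0.27 and -0.34 between sites. The number of lines limits precision, as does depth for *Ccl7*, with 407 reads in all.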
